A study of Mus musculus with 9 samples.

Results

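The genes described here encode potassium channels, pacemaker channels and voltage-gated sodium channels in the left ventricle of mice with and without delta-sarcoglycan. They are the protein-coding genes whose symbol begins with Kcn, or is that of an Hcn pacemaker channel or of an Scn sodium channel alpha or beta subunit. Of 112 such genes, 70 had 50 or more reads summed over the 9 libraries and were measured, among 49671 gene identifiers in all. These were 57 Kcn, 3 Hcn and 10 Scn genes. The other 42 genes lay under the read minimum, and 12 of them had no read in any library. Just inside the minimum were Kcnab3 with 54 reads, Kcns3 with 56 and Kcnc2 with 58, and just outside it were Kcne1l with 48, Kcns1 with 44 and Hcn3 with 37.

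A ventricular action potential starts when sodium enters the myocyte through voltage-gated sodium channels. Several potassium currents then return the membrane to its resting potential: transient outward and delayed rectifier currents through voltage-gated channels during repolarisation, and inward rectifiers that hold the resting level. In the adult mouse ventricle repolarisation is fast and rests largely on the transient outward current and on slowly inactivating outward currents, 1 of them that of the Kcna5 product. Pacemaker channels, opened by hyperpolarisation, carry the depolarising current of the sinus node and are sparse in working ventricle.

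The 9 libraries of polyadenylated RNA fall into 4 groups: dSG KO mice given ifetroban (KO ifetroban, 3 libraries), dSG KO mice given vehicle (KO vehicle, 2 libraries), wild-type mice given ifetroban (WT ifetroban, 2 libraries) and wild-type mice given vehicle (WT vehicle, 2 libraries). dSG is the usual short name of delta-sarcoglycan, the product of Sgcd, a membrane protein of the dystrophin complex whose loss causes muscular dystrophy and cardiomyopathy. Ifetroban blocks the receptor for thromboxane and related prostanoids. Strain, age, sex, dose, duration and the deleted exons are not given in the sources used here, nor whether each library came from its own animal. The p-values therefore rest on the spread among these libraries, part of which may be technical. In every group the labelled tissue was left ventricle, and the 10 cardiomyocyte markers examined were all detected.

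Each library held between 21299748 and 31394548 counts in genes. Sgcd, the targeted gene, was at 9.77, 16.4 and 18.5 CPM (normalised read counts scaled to library size) in KO ifetroban and 7.49 and 12.1 CPM in KO vehicle, against 33.1 and 31.2 CPM in WT ifetroban and 28.9 CPM in WT vehicle replicate 2. The library labelled WT vehicle replicate 1 had 11.1 CPM, from 217 reads, which lies within the range of the KO libraries and goes against its label. On the first principal component, which held 47.5% of the variance over all tested genes, KO ifetroban replicate 1 scored -34.2 and KO vehicle replicate 1 scored -84.4, while the remaining 7 spanned -2.02 to 38.2. In 4 libraries (KO ifetroban replicate 1, both KO vehicle libraries and the library labelled WT vehicle replicate 1) the longer a gene's transcript, the lower its deviation from the mean (Spearman correlation over genes, a description, -0.417 to -0.290). In the other 5 the correlation was positive (0.302 to 0.387). The channel genes were long, with a median exonic length of 5045 bases against 4182 bases over all tested genes, so main results are also given within these 2 classes of library (long transcripts low, long transcripts high).

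Levels were compared between genes as CPM per kilobase of exon. In WT libraries 15 of the 70 genes averaged 10 CPM per kilobase or more, 14 averaged 1 to 10 and 41 less than 1. Kcnk3, which encodes an acid-sensitive background potassium channel of the tandem pore domain family, had the highest level at 109 CPM per kilobase in WT (100.5 in KO). Kcng2, a silent subunit, was at 54.95, Kcnip2, the accessory subunit of the transient outward channel, at 53.2 and Kcnj11, the pore of the ATP-sensitive potassium channel, at 47.1 CPM per kilobase in WT. Kcnh2, the pore of the rapid delayed rectifier, was at 20.6. Of the pacemaker genes, Hcn2 was at 10.9 CPM per kilobase in WT and Hcn4 at 1.88. Summed over the 70 genes, the level was 1960, 2335 and 2495 CPM in KO ifetroban and 1559 and 2071 CPM in KO vehicle, against 2432 and 2452 CPM in WT ifetroban, 2205 CPM in the library labelled WT vehicle replicate 1 and 2554 CPM in WT vehicle replicate 2. The lowest sum was that of KO vehicle replicate 1, and the KO and WT ranges overlapped.

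**Figure D1:**
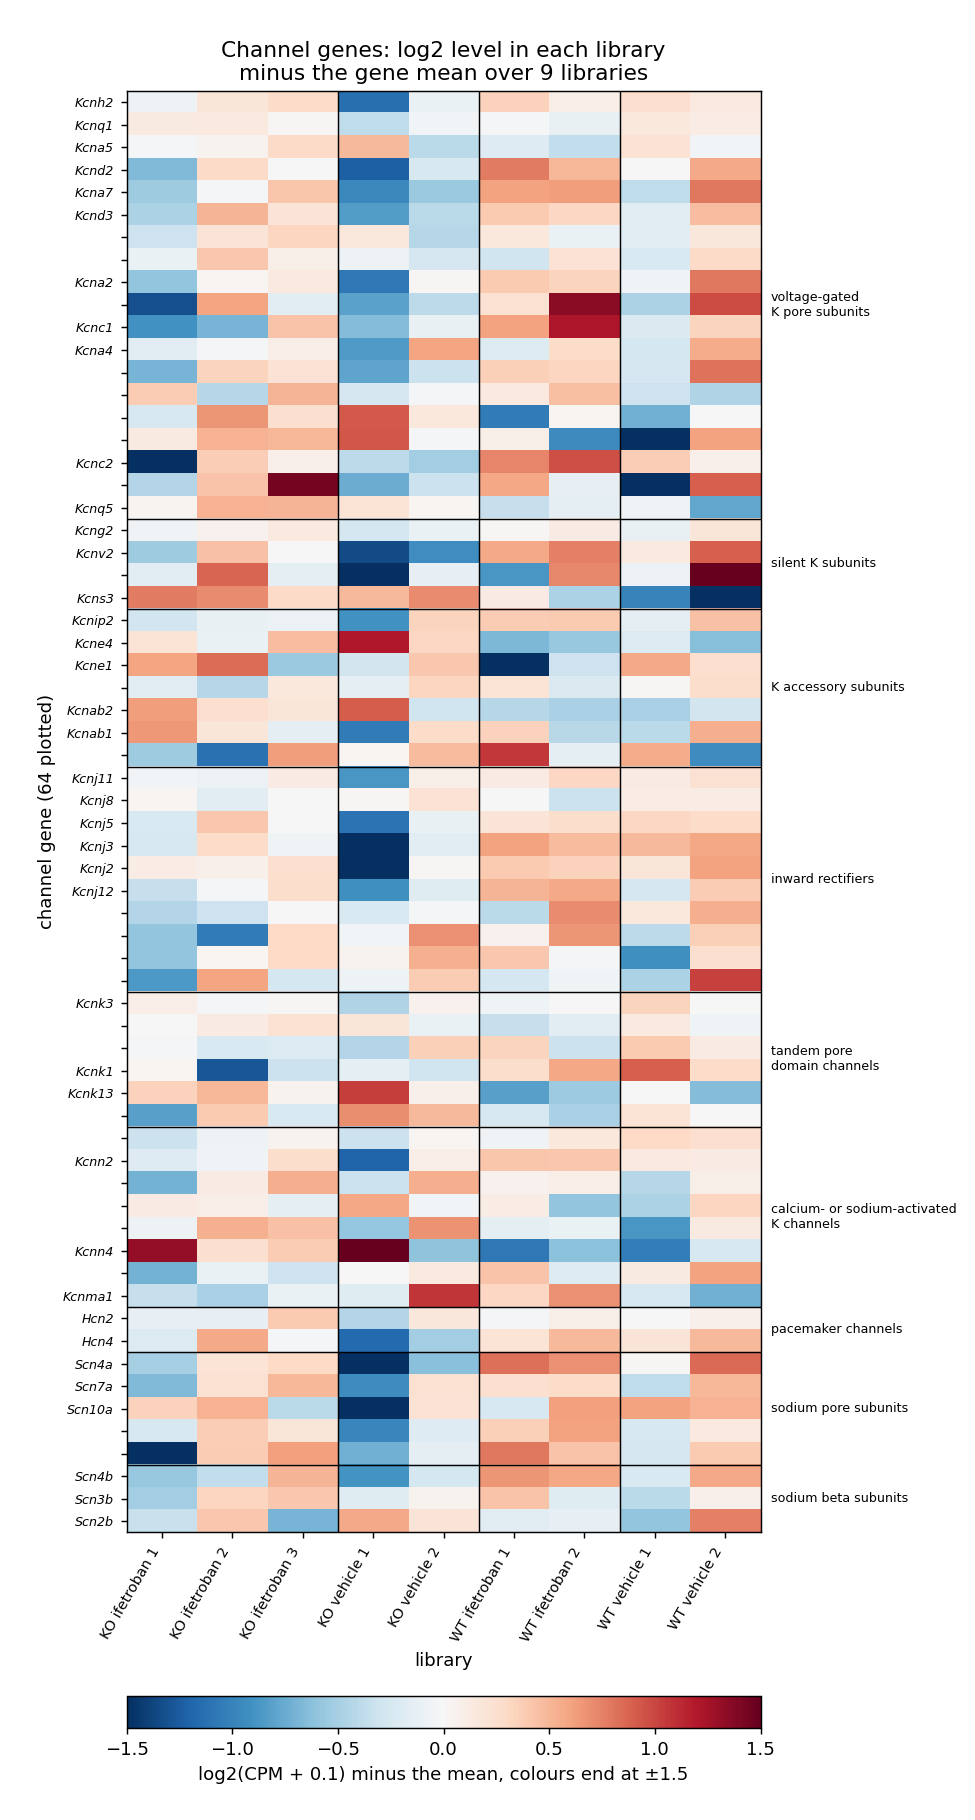
Level of 64 tested channel genes in each library, as log2(CPM + 0.1) minus the gene's mean over the 9 libraries, with colours ending at 1.5 in either direction; rows are grouped by channel family, with the genes named in the text labelled, and columns run from KO ifetroban through KO vehicle and WT ifetroban to WT vehicle. KO vehicle replicate 1 is the column with the most low values: it was the lowest of the 9 libraries for 30 of the 68 genes tested.

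The first comparison asked how the channel genes differed between KO and WT ventricles, averaged over both treatments. Most of the better expressed channel genes had lower values in KO, with Kcnv2, Scn4a, Kcnj3, Kcnd2, Scn4b and Hcn4 among those with the greatest differences. A smaller set had higher values in KO: Kcne4, at 1.135 CPM per kilobase in WT, and Kcnn4, Kcnk13, Kcnab2 and Kcns3, each under 1. Kcnk3, the most abundant gene, had values in KO and WT that overlapped. No channel gene passed the threshold, an adjusted p under 0.05 in the quasi-likelihood test of edgeR over all 15261 genes tested, at which 0.537% of all tested genes were called. The filter on low counts left 68 of the 70 genes in the test, all but Kcnab3 and Kcne3. Log2 fold changes are given ± SE, and adjusted p-values are those of this test.

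At an unadjusted p under 0.05, 13 of the 68 genes (19.1%) were lower in KO, where 5.94% of all tested genes were, and 5 (7.35%) were higher, where 10.6% of all tested genes were. DESeq2, which called 4.94% of all tested genes at an adjusted p under 0.05, called 7 of the 68. These were Hcn4, Kcnd2, Kcnj3, Kcnv2 and Scn4a lower, and Kcne4 and Kcnn4 higher. The median log2 fold change was -0.18 over the 68 genes and -0.00355 over all tested genes, and 45 of 68 (66.2%) were negative, against 50.5% of all. Of the 29 with a mean over the 9 libraries of 1 CPM per kilobase or more, a division chosen after the values were seen, 24 were negative with a median of -0.40; over all 10797 tested genes at that level 50.8% were negative, with a median of -0.00470. Of the 39 below it, 21 were negative with a median of -0.08, beside 49.6% of all 4438 tested genes at that level with a median of 0.01. KO and WT libraries did not overlap for 2 genes lower in KO, Kcnj3 and Kcnk1 (2.94% of the 68, against 2.28% of all tested genes), and for 4 higher in KO, Kcne4, Kcns3, Kcnk13 and Kcnq5 (5.88%, against 5.03%); Kcnk1 and Kcnq5 are named after their values were seen.

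These figures depended on single libraries. The median over the channel genes was -0.07 when KO vehicle replicate 1 was left out and -0.43 when KO vehicle replicate 2 was. It was -0.05 with WT vehicle replicate 2 left out and -0.29 with its companion, labelled WT vehicle replicate 1, left out. A fit with a term for the 2 classes of library gave -0.03. Over all tested genes the medians in these fits lay between -0.0104 and 0.00379. With the class term, 5 channel genes were lower and 6 higher in KO at an unadjusted p under 0.05. Those 11 of 68 stand beside 13.2% of all tested genes with such a p in either direction. No channel gene was called with that term or when a single KO ifetroban library was left out. Fits that left 1 library in a group are given by effect sizes only, without counts of genes. Within the class in which long transcripts were low, 3 KO libraries against the 1 labelled WT vehicle replicate 1 gave a median of -0.17 over the channel genes and -0.02 over all tested genes. Within the class in which they were high, 2 KO ifetroban libraries against 3 WT libraries gave -0.05 over the channel genes and 0.000605 over all. The 10 cardiomyocyte markers summed to 44230 to 59030 CPM in KO and 59720 to 65830 CPM in WT, with 9 of 10 negative and a median log2 fold change of -0.15. Ryr2 was at -0.59, Ttn at -0.54, Myh6 at -0.52, Pln at -0.36 and Mybpc3 at -0.23. Myl2, Myl3, Actn2 and Tnni3 lay between -0.07 and -0.02, and Tnnt2 was at 0.03. The 8 macrophage markers, none of them at 0, summed to 520.3 to 709 CPM in KO and 250.4 to 350 CPM in WT, with 7 of 8 positive and a median of 0.75. In RNA from whole tissue fewer cells of a type and less RNA per cell cannot be told apart, and the part of these markers in the channel values was not tested.

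Among the voltage-gated potassium pore subunits, 15 of 20 tested genes were negative in KO, with a median of -0.33, and 0 were called. Kcnd2 and Kcnd3 form the pore of the fast transient outward channel of mouse ventricle. Kcnd2 (chr6:21215503-21729805 on GRCm38, plus strand) was at 14.7, 28.4 and 23.1 CPM in KO ifetroban and 9.96 and 19.8 CPM in KO vehicle. In WT, Kcnd2 was at 40.1 and 32.9 CPM with ifetroban, 23.4 CPM in the library labelled WT vehicle replicate 1 and 34.7 CPM in WT vehicle replicate 2. Only KO ifetroban replicate 2 reached the WT range, whose lowest value was the library labelled WT vehicle replicate 1. The difference was -0.84 ± 0.25 (SE, adjusted p = 0.158), and it was -0.71 and -0.48 within the classes with long transcripts low and high. Kcnd3 was at 10.1, 20 and 16.1 CPM in KO ifetroban and 7.82 and 10.6 CPM in KO vehicle. In WT, Kcnd3 was at 18.5 and 17.4 CPM with ifetroban, 12.6 CPM in the library labelled WT vehicle replicate 1 and 19.4 CPM in WT vehicle replicate 2. KO ifetroban replicate 2 was the highest of the 9, KO ifetroban replicate 1 and both KO vehicle libraries lay below the lowest WT value, and the log2 fold change was -0.51 ± 0.22 (SE, adjusted p = 0.288).

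Kcna7, a channel of cardiac and skeletal muscle, lay at 2.47 to 6.55 CPM in KO and 3.75 to 8.54 CPM in WT, with a log2 fold change of -0.86 ± 0.28 (SE, adjusted p = 0.189); the lowest WT value, 3.75 CPM, was again that of the library labelled WT vehicle replicate 1, and the WT median was 7.56 CPM. Kcna5, which carries a slowly inactivating outward current, averaged 21.96 ± 4.96 CPM in KO (SD, n = 5) and 19.2 ± 3.36 CPM in WT (SD, n = 4), with a log2 fold change of 0.20 ± 0.18. Kcnh2 was at 81.8, 97.5 and 104 CPM in KO ifetroban and 39.3 and 80.01 CPM in KO vehicle. In WT, Kcnh2 was at 109.5 and 92 CPM with ifetroban, 102 CPM in the library labelled WT vehicle replicate 1 and 94.97 CPM in WT vehicle replicate 2. The low value was KO vehicle replicate 1, and the log2 fold change of -0.41 ± 0.19 (SE, adjusted p = 0.325) was -0.69 within the class with long transcripts low and 0.03 within the class with them high. Kcnq1, the pore of the slow delayed rectifier, overlapped between genotypes at 38.9 to 55.8 CPM in KO and 46.9 to 56.7 CPM in WT. Kcnc1, a fast channel of neurons, was at 1.07 to 2.87 CPM in KO and 1.797 to 4.99 CPM in WT with -0.85 ± 0.33, and Kcna2, a neuronal channel named after its values were seen, at 1.44 to 3.49 CPM in KO and 3.03 to 5.53 CPM in WT with -0.68 ± 0.29. The 12 markers of neurons and Schwann cells, 7 of them tested and Chat at 0, summed to 22.8 to 37.3 CPM in KO and 21.4 to 22.9 CPM in WT.

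**Figure D2:**
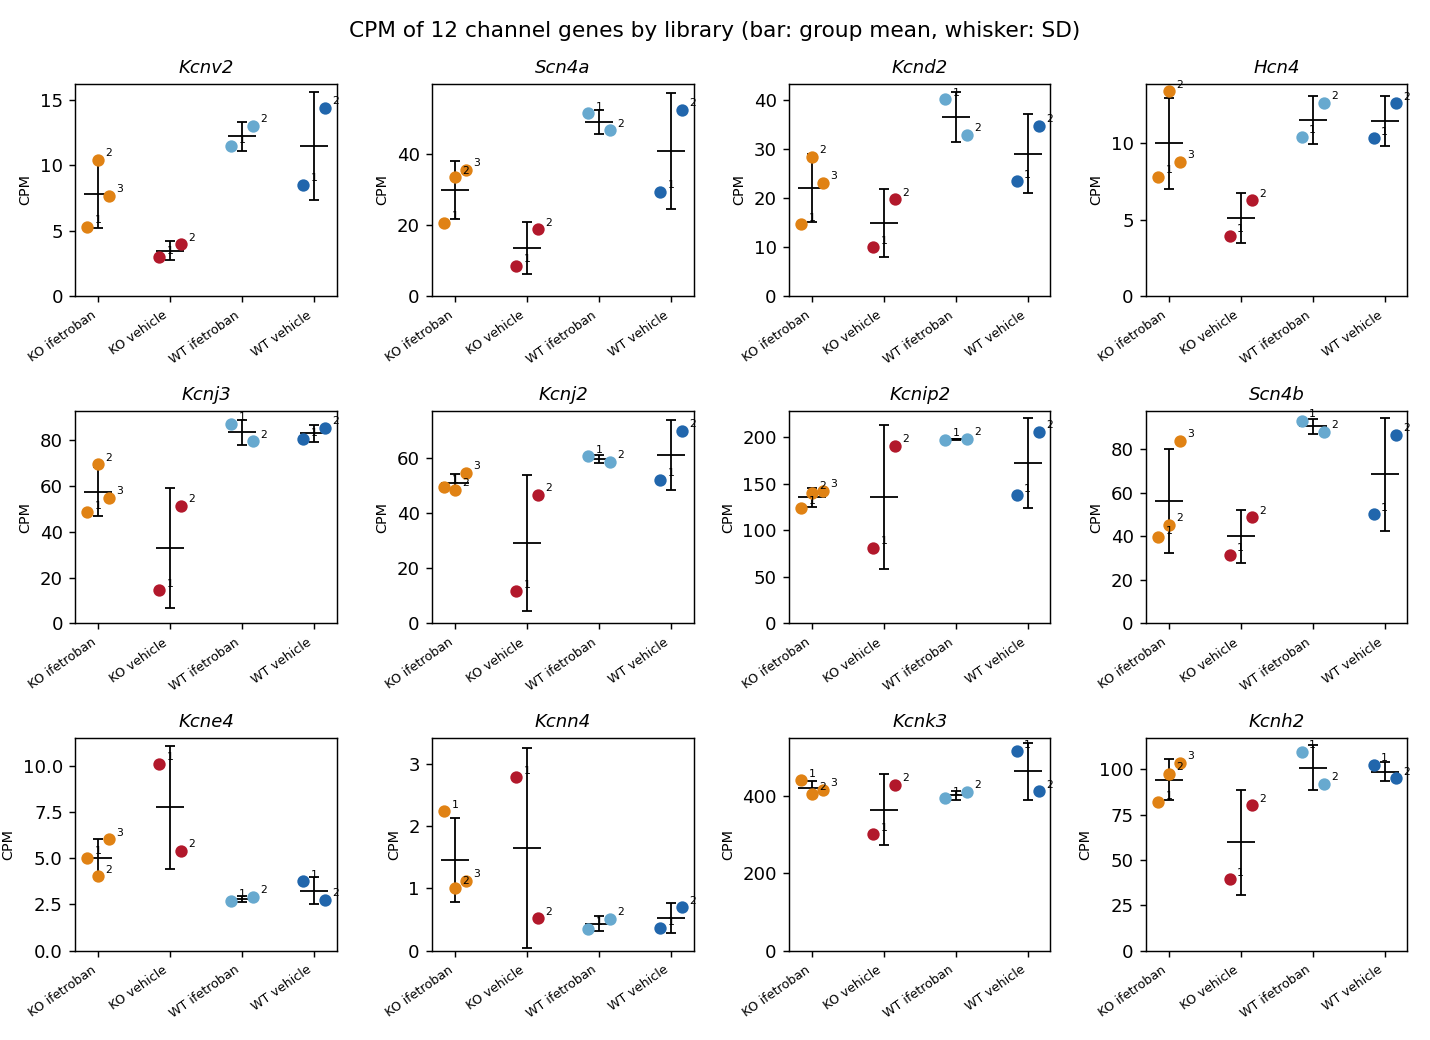
CPM of 12 channel genes in each library, with points for single libraries marked by replicate number, a bar at the mean of each group and whiskers of 1 SD, from KO ifetroban on the left to WT vehicle on the right. Kcnv2 and Scn4a are lowest in the 2 KO vehicle libraries and Kcnd2 in KO vehicle replicate 1, Kcne4 is higher in every KO library than in any WT library, and Kcnk3 and Kcnh2 overlap between genotypes.

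Silent subunits form no channel alone and join other voltage-gated pore subunits, whose gating they change. Kcnv2 (chr19, 1979 reads) had the smallest p of all channel genes. Its level was 5.28, 10.4 and 7.68 CPM in KO ifetroban and 2.98 and 3.97 CPM in KO vehicle. In WT, Kcnv2 was at 11.4 and 12.99 CPM with ifetroban, 8.52 CPM in the library labelled WT vehicle replicate 1 and 14.4 CPM in WT vehicle replicate 2. All KO values except that of KO ifetroban replicate 2 lay below the lowest WT value, which came from the library labelled WT vehicle replicate 1, and the log2 fold change was -1.18 ± 0.24 (SE, adjusted p = 0.0607). It was -1.09 and -0.52 within the classes with long transcripts low and high. Kcng2, with 35673 reads, overlapped between genotypes, at 131 to 175 CPM in KO and 146 to 179 CPM in WT and -0.12 ± 0.12. Kcns3 rested on 56 reads in all, 0.272 to 0.421 CPM in KO and 0 to 0.23 CPM in WT, and its fitted log2 fold change of 2.39 ± 0.60 (SE, adjusted p = 0.106) depends on the small count added to each library.

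Of the 7 tested accessory subunits of potassium channels, 4 were negative and the median was -0.08. Kcnip2 binds the Kcnd2 and Kcnd3 channels and is needed for their current in mouse ventricle. It was at 124, 140.3 and 142 CPM in KO ifetroban and 81.05 and 190.5 CPM in KO vehicle. In WT, Kcnip2 was at 197 and 198 CPM with ifetroban, 138 CPM in the library labelled WT vehicle replicate 1 and 206 CPM in WT vehicle replicate 2. The library labelled WT vehicle replicate 1 lay within the KO range, KO vehicle replicate 2 came nearest to the other WT libraries, and the log2 fold change was -0.44 ± 0.23 (SE, adjusted p = 0.358). Kcne4, a single-span subunit that lowers the current of Kcnq1 channels, had the opposite sign. It was at 5.002, 4.02 and 6.01 CPM in KO ifetroban and 10.1 and 5.4 CPM in KO vehicle. In WT, Kcne4 was at 2.69 and 2.89 CPM with ifetroban, 3.75 CPM in the library labelled WT vehicle replicate 1 and 2.74 CPM in WT vehicle replicate 2. Every KO library was above every WT library, by a log2 fold change of 1.05 ± 0.24 (SE, adjusted p = 0.0798), and within the classes by 0.78 and 0.81. Kcnab2, a cytoplasmic beta subunit, was at 2.78 to 6.51 CPM in KO and 2.41 to 2.82 CPM in WT, with 0.83 ± 0.26 (SE, adjusted p = 0.179), while its relative Kcnab1 was at 0.651 to 2.34 CPM in KO and 1.07 to 2.16 CPM in WT, with -0.08 ± 0.37. Kcne1, the partner of Kcnq1 in the slow delayed rectifier, was under 5 CPM in each library, and its log2 fold change was 0.47 ± 0.36.

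Of the 10 tested inward rectifiers 8 were negative, with a median of -0.42. Kcnj3 and Kcnj5 together form the channel opened by G proteins downstream of the muscarinic receptor, which is best known from atrium and nodes. Kcnj3 was at 48.5, 69.4 and 54.7 CPM in KO ifetroban and 14.4 and 51.3 CPM in KO vehicle. In WT, Kcnj3 was at 87.1 and 79.5 CPM with ifetroban, 80.3 CPM in the library labelled WT vehicle replicate 1 and 85.5 CPM in WT vehicle replicate 2. The 2 genotypes did not overlap, and KO vehicle replicate 1 was lowest by a wide margin. The log2 fold change was -0.93 ± 0.30 (SE, adjusted p = 0.185), with -1.28 within the class with long transcripts low and -0.45 within the other. Kcnj5 was at 30.6 to 87.4 CPM in KO and 75.3 to 81.9 CPM in WT, with -0.48 ± 0.20 (SE, adjusted p = 0.283), and the 2 values within the classes were -0.80 and -0.04. The 6 atrial markers, 3 of them tested and none at 0, summed to 381 to 1300 CPM in KO and 227.1 to 298 CPM in WT. Most of that sum was Nppa, which ventricle under load also makes, at 363 to 1278 CPM in KO and 207.6 to 279 CPM in WT. The other 2 tested, Stard10 and Myl4, overlapped between genotypes, and Myl7, Sln and Bmp10 were each under 0.4 CPM. The part of these markers in the 2 genes was not tested.

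Kcnj2 and Kcnj12 carry the inward rectifier current that sets the resting potential of ventricular myocytes. Kcnj2 was at 49.7, 48.6 and 54.8 CPM in KO ifetroban and 11.7 and 46.9 CPM in KO vehicle. In WT, Kcnj2 was at 60.8 and 58.7 CPM with ifetroban, 52.3 CPM in the library labelled WT vehicle replicate 1 and 70.2 CPM in WT vehicle replicate 2. KO vehicle replicate 1 was far below every other library, and of the other KO libraries only KO ifetroban replicate 3 reached the WT range. With KO vehicle replicate 1 included the log2 fold change was -0.64 ± 0.32 (SE, adjusted p = 0.337), and without KO vehicle replicate 1 it was -0.31. Kcnj12 was at 12.3 to 28.3 CPM in KO and 19.7 to 34.9 CPM in WT, with -0.58 ± 0.20 (SE, adjusted p = 0.21). Kcnj11, which couples the membrane potential of myocytes to ATP, lay at 82.3 to 164 CPM in KO and 164 to 188 CPM in WT with -0.35 ± 0.18, and Kcnj8, the corresponding pore of vascular smooth muscle and pericytes, at 41.4 to 53.9 CPM in KO and 37.1 to 50.1 CPM in WT with 0.06 ± 0.12.

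The 6 tested genes of the tandem pore domain family were 3 negative and 3 positive, with a median of 0.03. Kcnk3 was at 442, 407 and 417 CPM in KO ifetroban and 301 and 430.2 CPM in KO vehicle. In WT, Kcnk3 was at 395 and 412 CPM with ifetroban, 517 CPM in the library labelled WT vehicle replicate 1 and 413 CPM in WT vehicle replicate 2. KO vehicle replicate 1 was lowest, the library labelled WT vehicle replicate 1 was highest and the other 7 lay between 395 and 442 CPM; the log2 fold change was -0.14 ± 0.14. Kcnk13, a halothane-inhibited channel also known from microglia, was at 1.12 to 2.33 CPM in KO and 0.575 to 1.08 CPM in WT with 1.04 ± 0.32 (SE, adjusted p = 0.167), and its genotypes did not overlap. The macrophage markers given above were also positive in KO (median 0.75), and their part in Kcnk13 and Kcnn4 was not tested. Kcnk1, a weak background channel measured by only 86 reads, was at 0.09203 to 0.374 CPM in KO and 0.4602 to 0.77 CPM in WT with -1.08 ± 0.44. Among the 8 calcium- or sodium-activated potassium channels 5 were positive, with a median of 0.16. Kcnn4, the intermediate-conductance channel of leukocytes and other dividing cells, was at 2.24, 1.01 and 1.12 CPM in KO ifetroban and 2.79 and 0.516 CPM in KO vehicle. In WT, Kcnn4 was at 0.345 and 0.515 CPM with ifetroban, 0.359 CPM in the library labelled WT vehicle replicate 1 and 0.696 CPM in WT vehicle replicate 2. The 2 highest values came from KO vehicle replicate 1 and KO ifetroban replicate 1, KO vehicle replicate 2 lay within the WT range, and the log2 fold change was 1.67 ± 0.53 (SE, adjusted p = 0.183). Kcnn2, a small-conductance channel, was at 6.47 to 18.1 CPM in KO and 16.3 to 20.1 CPM in WT with -0.47 ± 0.23.

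Of the pacemaker channels, Hcn4 is the main form of the sinus node and Hcn2 the main form of ventricle. Hcn4 (chr9, plus strand) was at 7.81, 13.4 and 8.804 CPM in KO ifetroban and 3.96 and 6.27 CPM in KO vehicle. In WT, Hcn4 was at 10.4 and 12.6 CPM with ifetroban, 10.3 CPM in the library labelled WT vehicle replicate 1 and 12.6 CPM in WT vehicle replicate 2. Both KO vehicle values and 2 of the 3 KO ifetroban values lay below all WT values, while KO ifetroban replicate 2 was the highest of the 9. The log2 fold change was -0.68 ± 0.21 (SE, adjusted p = 0.172), with -0.82 and -0.12 within the classes. Hcn2 averaged 34.2 ± 7.51 CPM in KO (SD, n = 5) and 34.98 ± 1.36 CPM in WT (SD, n = 4), with -0.05 ± 0.16. The 12 markers of the conduction system, Hcn4 among them, summed to 50.2 to 89.7 CPM in KO and 71.2 to 75.4 CPM in WT, and Isl1 was at 0.

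All 6 tested sodium channel pore subunits were negative in the design used, with a median of -0.52, and none was called; not all of them were negative with length offsets or with the class term. Scn4a, the sodium channel of skeletal muscle, was at 20.6, 33.4 and 35.6 CPM in KO ifetroban and 8.47 and 18.8 CPM in KO vehicle. In WT, Scn4a was at 51.4 and 46.7 CPM with ifetroban, 29.4 CPM in the library labelled WT vehicle replicate 1 and 52.5 CPM in WT vehicle replicate 2. The library labelled WT vehicle replicate 1 lay within the KO range and the other 3 WT libraries above it, and the log2 fold change was -1.15 ± 0.27 (SE, adjusted p = 0.08798). Within the classes it was -0.98 and -0.54. The 8 skeletal muscle markers, 3 of them tested and none at 0 in all libraries, summed to 22.4 to 57.2 CPM in KO and 19.4 to 41.5 CPM in WT. Most of the sum was Myl1 in every library. In KO ifetroban replicate 3, where the sum was 57.2 CPM, Myl1 was at 30.2 CPM beside Myh1 at 9.58, Tnnt3 at 6.13, Myh4 at 3.96 and Actn3 at 2.02 CPM. Those 4 were each under 1 CPM in the other 8 libraries, and KO ifetroban replicate 3 also had the highest Scn4a of the KO libraries. Their part in Scn4a was not tested. Scn7a, a sodium sensor that does not open with voltage and is known from glia, lay at 13.8 to 37.5 CPM in KO and 20.4 to 37.5 CPM in WT with -0.26 ± 0.30, and Scn10a, known from sensory and cardiac neurons, at 0.233 to 2.09 CPM in KO and 1.19 to 2.22 CPM in WT with -0.59 ± 0.46. Of the 4 beta subunits, which anchor and modulate the pore, Scn4b was at 39.4, 45.2 and 83.7 CPM in KO ifetroban and 31.4 and 48.6 CPM in KO vehicle. In WT, Scn4b was at 92.8 and 87.8 CPM with ifetroban, 50.05 CPM in the library labelled WT vehicle replicate 1 and 86.6 CPM in WT vehicle replicate 2. The library labelled WT vehicle replicate 1 and KO ifetroban replicate 3 each stood nearer to the other genotype, and the log2 fold change was -0.73 ± 0.26 (SE, adjusted p = 0.217). Scn2b and Scn3b were at 0.09 and 0.03, both changing sign when single libraries were left out.

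**Figure D3:**
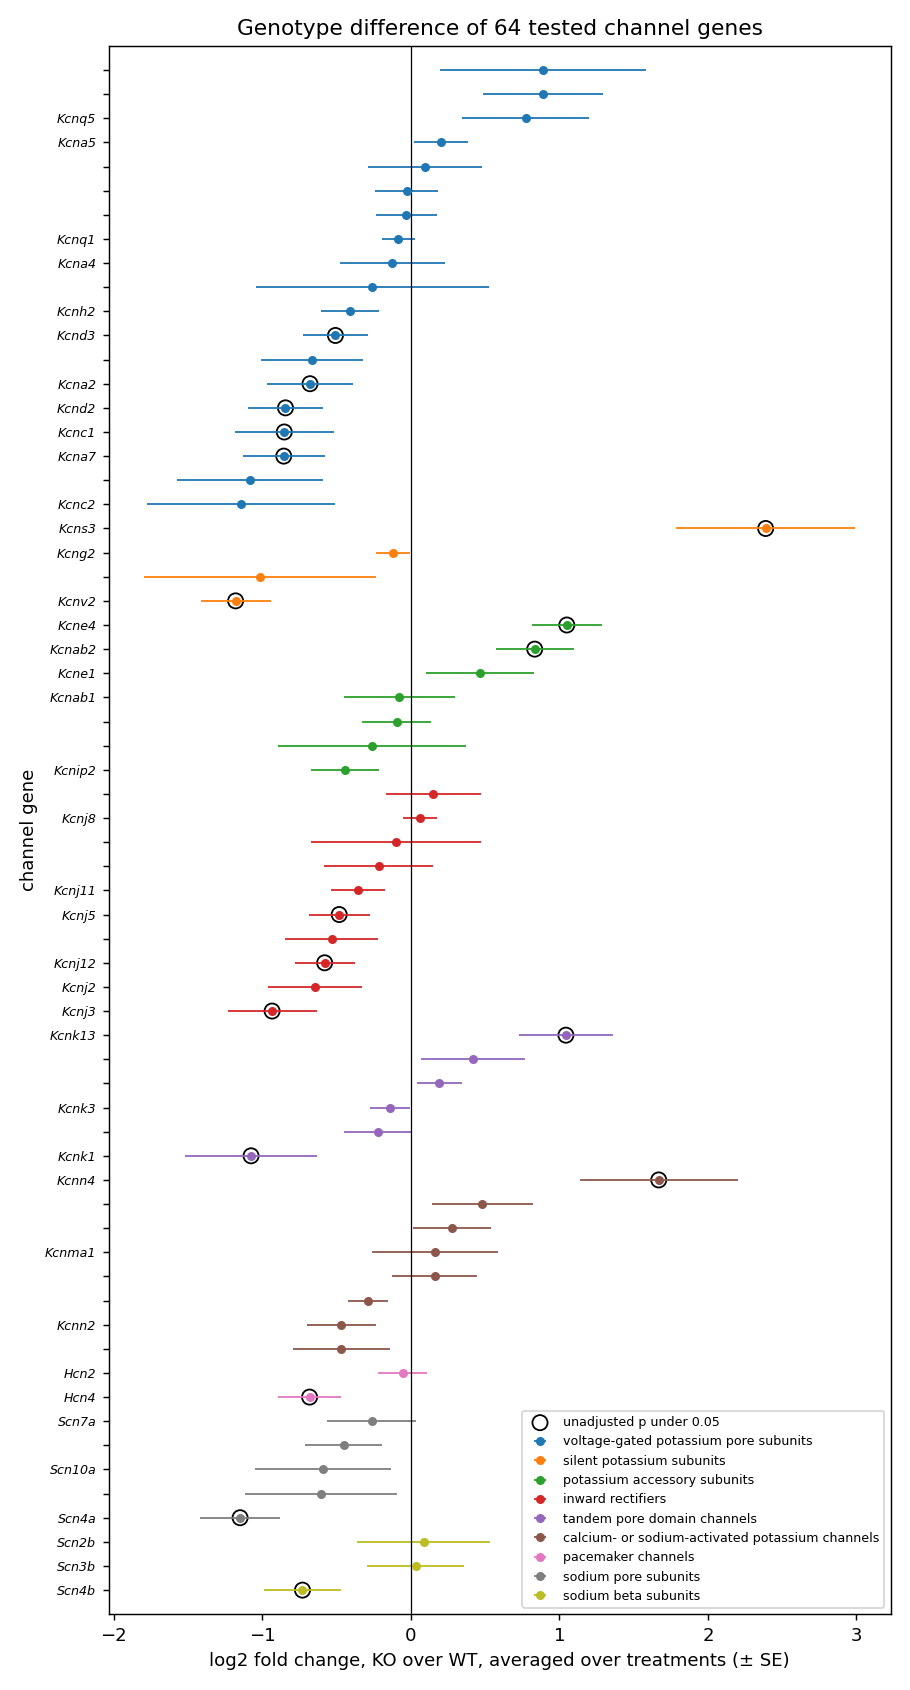
Log2 fold change of 64 tested channel genes in KO over WT, averaged over treatments, with bars for the standard error, coloured by family, with the genes named in the text labelled; rings mark an unadjusted p under 0.05. Of the 18 ringed genes 13 lie below 0, among them Kcnv2 at -1.18 and Scn4a at -1.15, and 5 above, among them Kcne4 at 1.05; none passed the adjusted threshold.

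RefSeq promoter windows on GRCm38.p6 were matched by symbol to 49 of the 70 genes. Kcnd2 and Hcn4, both among the lower genes in KO and each with over 1000 reads, are shown as the 250 bases before their RefSeq start on the plus strand, with CG dinucleotides in capitals because promoters divide by CG content. Kcnd2 is shown at chr6:21215096-21215345 and Hcn4 at chr9:58822699-58822948.
Kcnd2: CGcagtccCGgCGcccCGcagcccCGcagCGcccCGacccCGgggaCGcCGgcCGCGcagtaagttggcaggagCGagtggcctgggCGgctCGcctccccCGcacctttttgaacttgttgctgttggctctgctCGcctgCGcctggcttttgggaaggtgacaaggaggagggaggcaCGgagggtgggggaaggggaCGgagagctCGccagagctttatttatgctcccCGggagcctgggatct
Hcn4: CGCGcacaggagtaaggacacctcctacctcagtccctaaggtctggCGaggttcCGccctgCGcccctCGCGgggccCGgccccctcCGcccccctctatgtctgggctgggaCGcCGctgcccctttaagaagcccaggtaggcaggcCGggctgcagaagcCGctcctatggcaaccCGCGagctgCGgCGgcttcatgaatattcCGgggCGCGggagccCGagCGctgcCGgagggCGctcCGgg
The letters CG, which read the same on both strands, occurred 22 times in the Kcnd2 window and 25 times in the Hcn4 window, more than in 85.2% and 89.3% of 32851 RefSeq promoter windows of this length. The median window held 6 over all promoters and 8 over the 68 promoters of the measured channel genes, with a GC content of 52.4% over all and 58.8% over those of the channel genes. Nothing in these data measured binding or methylation at these windows.

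The second comparison set KO vehicle against WT vehicle, the disease model without drug. These 4 libraries also enter the averaged comparison, so the values of both are not independent. Lower values in KO vehicle were those of Kcnv2 at -1.72 ± 0.36 (SE, adjusted p = 0.222), Scn4a at -1.58 ± 0.41 (SE, adjusted p = 0.241), Kcnj3 at -1.33 ± 0.45 (SE, adjusted p = 0.312) and Hcn4 at -1.16 ± 0.32 (SE, adjusted p = 0.242). Of the genes higher in KO vehicle, those with the smallest p were Kcns3, Kcne4, Kcnk13 and Kcnab2. Kcne4 was at 10.1 and 5.4 CPM in KO vehicle, against 3.75 and 2.74 CPM in the libraries labelled WT vehicle. Kcnk13 was at 2.33 and 1.15 CPM against 1.08 and 0.657 CPM. Kcnab2 was at 6.51 and 2.78 CPM against 2.41 and 2.82 CPM, and Kcns3 at 0.326 and 0.397 CPM against 0.0513 and 0 CPM. No channel gene was called by edgeR (0.0524% of all tested genes were). DESeq2, which called 2.44% of all tested genes, called 4 of the 68, Hcn4, Kcnv2 and Scn4a lower and Kcne4 higher. At an unadjusted p under 0.05, 10 of 68 were lower (14.7%, against 4.25% of all tested genes) and 2 higher (2.94%, against 8.26%), and the median was -0.34 against -0.01 over all. Groups of 2 did not overlap for 22 genes lower in KO vehicle (32.4%, against 18.2% of all tested genes) and 9 higher (13.2%, against 16.8%). Without KO vehicle replicate 1 the median was -0.14, and without KO vehicle replicate 2 it was -0.64; with the class term it was -0.03. It was -0.12 without WT vehicle replicate 2 and -0.45 without the library labelled WT vehicle replicate 1. Over all tested genes the medians in these fits lay between -0.04 and -0.00112. With the class term, 6 channel genes were lower and 4 higher at an unadjusted p under 0.05. Those 10 of 68 stand beside 11.8% of all tested genes with such a p in either direction.

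The third comparison took the same genotype difference under the drug. In KO ifetroban against WT ifetroban, Kcnv2 was at -0.64 ± 0.31, Scn4a at -0.71 ± 0.36, Kcnj3 at -0.53 ± 0.40 and Hcn4 at -0.20 ± 0.28, while Kcne4 was at 0.84 ± 0.32, Kcnk13 at 1.08 ± 0.43 and Kcnab2 at 0.85 ± 0.36. No channel gene was called by edgeR (0.0131% of all tested genes were) or by DESeq2. At an unadjusted p under 0.05, 5 were higher (7.35%, against 3.85% of all tested genes) and 1, Kcnc1, lower (1.47%, against 0.852%), with a median of -0.12 against 0.01 over all. When KO ifetroban replicate 1 was omitted, 1 gene was higher and 1 lower at that p, with a median of -0.00775. In that fit 3.33% of all tested genes had such a p in either direction. The numbers were 2 and 3 (against 3.56% of all) when the library numbered 2 of that group was omitted. They were 0 and 2 with the class term (against 4.73%) and 7 and 10 with only the groups compared (against 9.67%). The median was -0.07 without WT ifetroban replicate 1 and -0.09 without its companion. Of the 6 sodium pore subunits 5 were negative with a median of -0.27, and of the 10 inward rectifiers 8 were negative with a median of -0.24. Whether the 2 genotype differences, under vehicle and under ifetroban, are unequal is the interaction given below.

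The fourth comparison asked what ifetroban was associated with in KO ventricles. The 4 channel genes with the smallest p had higher mean levels in KO ifetroban: Kcnv2 by 1.17 ± 0.33 (SE, adjusted p = 0.688), Hcn4 by 0.97 ± 0.29 (SE, adjusted p = 0.688), Scn4a by 1.13 ± 0.38 (SE, adjusted p = 0.688) and Kcnd3 by 0.74 ± 0.30 (SE, adjusted p = 0.688). Values of the 2 groups overlapped for Kcnd3, and also for Kcnj3, at 0.81 ± 0.41. This comparison shares the KO vehicle libraries with the genotype comparison, so low values in them move both. No channel gene was called by edgeR or DESeq2 (0% of all tested genes were called by edgeR). At an unadjusted p under 0.05, 5 of 68 were higher (7.35%, against 2.59% of all tested genes), the 4 named above and Kcnh2 at 0.66 ± 0.27, and 0 lower (against 2.42%). The median was 0.22 against -0.02 over all tested genes, and 44 of 68 were positive (64.7%, against 47.6%).

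By family, all 6 sodium pore subunits were positive (median 0.66), as were the 4 silent subunits (median 0.70), the 3 pacemaker channels (median 0.47) and 17 of 20 voltage-gated pore subunits (median 0.37), while the inward rectifiers were 5 to 5 (median 0.09). Kcne4 was at -0.63 ± 0.30, opposite to its genotype difference. For Kcnv2 all 3 KO ifetroban values lay above both KO vehicle values, and likewise for Hcn4 and Scn4a; 9 genes (13.2%, against 8.38% of all tested genes) had such values. Without KO vehicle replicate 1 the differences were 0.98 for Kcnv2, 0.68 for Hcn4 and 0.67 for Scn4a, and the median over the channel genes was 0.12. When KO vehicle replicate 2 was left out instead, the median was 0.44. Over all tested genes the medians of these 2 fits were 0.02 and 0.00211. The number of channel genes higher at an unadjusted p under 0.05 was 10 when KO ifetroban replicate 1 was omitted. In that fit 14.6% of all tested genes had such a p in either direction. Without KO ifetroban replicate 2, 3 were higher and 1 lower (against 1.29% of all). Without KO ifetroban replicate 3, 3 were higher and 2 lower (against 1.99%). With the class term, 1 was higher and 1 lower (against 2.18%). With that term the median was -0.03: both KO vehicle libraries belong to the class with long transcripts low and 2 of the 3 KO ifetroban libraries to the other.

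The fifth comparison set WT ifetroban against WT vehicle. No channel gene was called by edgeR (0% of all tested genes were) or DESeq2, the median was -0.000324 over the channel genes and -0.02 over all, and 2 of 68 had an unadjusted p under 0.05 (2.94%, against 1.26% of all tested genes), Kcns3 at 2.72 ± 1.09 and Kcne1 at -1.27 ± 0.55. The median over the channel genes was 0.31 without WT vehicle replicate 2, -0.10 without the library labelled WT vehicle replicate 1, and -0.14 with the class term. With all libraries Kcnv2 was at 0.09 ± 0.34, Hcn4 at 0.01 ± 0.31 and Kcnj3 at 0.01 ± 0.44. Kcnma1, the large-conductance calcium-activated channel, had 94 reads in all and 1.23 ± 0.64, and its highest value of the 9, 0.913 CPM, was in KO vehicle replicate 2. The interaction, the ifetroban difference in KO minus that in WT, tested whether these differences were unequal. No channel gene was called by edgeR (0% of all tested genes were) or DESeq2, and 4 had an unadjusted p under 0.05 (5.88%, against 1.38% of all): Hcn4 at 0.96 ± 0.42 (SE, adjusted p = 0.9998), Kcnv2 at 1.08 ± 0.47 (SE, adjusted p = 0.9998), Kcnq1 at 0.50 ± 0.22 (SE, adjusted p = 0.9998) and Kcnma1 at -2.33 ± 0.84 (SE, adjusted p = 0.9998). The 3 positive ones became 0 with RLE size factors. The median over the channel genes was 0.15 with all libraries and -0.06 without WT vehicle replicate 2. That median was 0.35 with the library labelled WT vehicle replicate 1 left out. It was 0.0984 when KO vehicle replicate 1 was omitted and 0.44 when its companion was. Omitting WT ifetroban replicate 1 gave 0.17, and omitting its companion gave 0.24. The number positive at that p was 2, 0 and 1 as KO ifetroban replicates 1, 2 and 3 were omitted in turn.

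**Figure D4:**
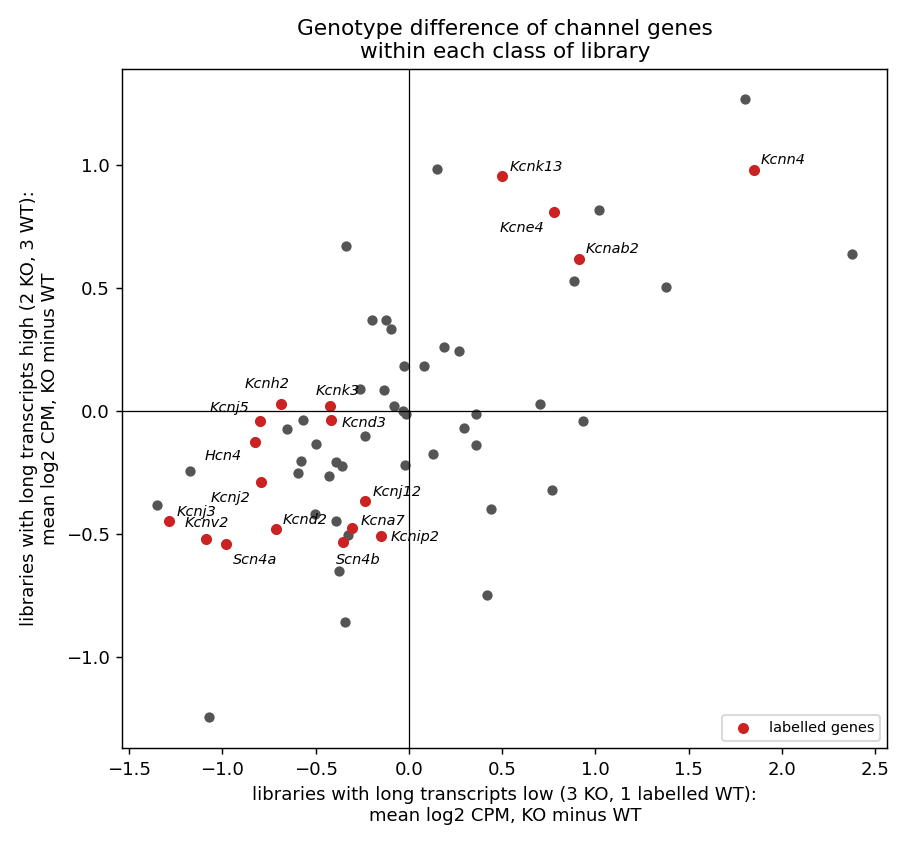
Mean log2 CPM of KO minus WT libraries for 64 tested channel genes (1 point a gene), within the class in which long transcripts were low (3 KO libraries and the 1 labelled WT vehicle replicate 1) and within the class in which they were high (2 KO and 3 WT libraries). Over all 68 tested genes the medians are -0.17 and -0.05; Kcnv2, Scn4a, Kcnd2, Kcnj3 and Scn4b lie below 0 and Kcne4, Kcnk13, Kcnab2 and Kcnn4 above 0 in both.

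Other genes of cardiac excitability were read from a list of 51 genes (calcium channel subunits, connexins, sodium pump and exchanger, anchoring proteins, sulfonylurea receptors and transcription factors of the conduction system), of which 47 were tested. In KO against WT, averaged, 32 were negative (68.1%, against 50.5% of all tested genes), with a median of -0.14 and 0 called. At an unadjusted p under 0.05, 12 were lower (25.5%, against 5.94%), among them Cacna1c, the pore of the L-type calcium channel, at -0.59 ± 0.23, Abcc9, a sulfonylurea receptor that pairs with Kcnj11 and Kcnj8, at -0.59 ± 0.26, and Cacna1g, a T-type calcium channel, at -0.69 ± 0.24. Higher at that p were 2 (4.255%, against 10.6%), Cav3, caveolin of muscle, at 0.66 ± 0.27 among them. In the libraries with long transcripts high, Cacna1c was at 330 and 337 CPM in KO and 353.5 to 379 CPM in WT. Abcc9 was at 414 and 452 CPM in those KO libraries and 450.2 to 522 CPM in WT. Cacna1g was at 17.1 and 10.1 CPM there in KO and 13.8 to 15.4 CPM in WT. Cacna1c, Abcc9 and Cacna1g each had their lowest value in KO vehicle replicate 1. The part of the library classes in this list was not tested. In KO ifetroban against KO vehicle 34 of 47 were positive (72.3%, against 47.6% of all tested genes), with a median of 0.27.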

How the data were processed

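Raw read counts per gene were deposited for each library by the authors; the submitters' processing notes name STAR 2.5.2b, HTSeq without a version, and GRCm38. The annotation release is not given in the sources used here. Rows that name no gene held 26.6% to 31.9% of reads and were left out. The reverse-strand count column was used, since it held 14.5 times the counts of the forward one; STAR leaves out reads with several alignments or several genes. Symbols, exonic lengths and coordinates came from GENCODE M21, which matched 49412 of 49671 identifiers. The 6 pairs of libraries within groups differed beyond sampling noise (chi-square per degree of freedom 14.2 to 88.1).

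CPM used TMM library sizes. Genes kept by filterByExpr were fitted in edgeR 4.0.16 (R 4.3.3) with 1 coefficient per group and all 9 libraries, tested by quasi-likelihood F tests, two-sided, with Benjamini-Hochberg adjustment over 15261 genes, after a check on simulated data; DESeq2 1.42.0 was an alternative. Principal components and within-class values used log2 CPM with a prior count of 2. Groups and replicate numbers came from the titles. Promoters came from RefSeq (GRCm38.p6). The members and gene lists were chosen with earlier results of these data known. Named genes were, per comparison and direction, the 4 of smallest p, and a list of channel genes known from heart, muscle or neurons, some of which are not reported here; others are marked as named after their values were seen.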

Additional observations from a re-analysis of the deposited data

Results flagged for a closer look

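Each named channel gene was examined for a library that stood far from the others of its genotype, with treatments pooled (5 KO and 4 WT libraries). Of 78 groups, 8 had such a library, where chance gives about 1 in 20; KO vehicle replicate 1 accounted for 3 of the 8, and 3 came from the library labelled WT vehicle replicate 1. In KO vehicle replicate 1, Kcnj2 was at 11.7 CPM where the other KO libraries lay between 46.9 and 54.8 CPM. In the same library Kcnj11 was at 82.3 CPM, against 142 to 164 CPM in the others, and Kcnk3 at 301 CPM, against 407 to 442 CPM. In the library labelled WT vehicle replicate 1, Kcnip2 was at 138 CPM where the other WT libraries lay between 197 and 206 CPM, and Scn4b at 50.05 CPM, against 86.6 to 92.8 CPM. That library was the highest for Kcnk3, at 517 CPM against 395 to 413 CPM. Kcnma1 was at 0.913 CPM in KO vehicle replicate 2 and at 0.245 to 0.349 CPM in the other KO libraries. Scn10a was at 1.19 CPM in WT ifetroban replicate 1 and at 2.09 to 2.22 CPM in the other WT libraries.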

How the results depend on the processing

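edgeR called 0 channel genes in each of the 6 comparisons in the design used, and that count changed as follows. For KO minus WT averaged over treatments, 7 were called by DESeq2, 18 with no filter on low counts and 1 (Kcnv2) with length offsets. For KO vehicle minus WT vehicle, 4 were called by DESeq2, 12 with no filter, and 0 to 15 with single libraries left out, the 15 again without KO vehicle replicate 2. For KO ifetroban minus WT ifetroban, 4 were called with no filter. For KO ifetroban minus KO vehicle, 5 were called with no filter. With any single KO ifetroban library left out, 0 were called in each comparison. Fits that left 1 library in a group are not counted here. With the replicate number as a block, 8 were called in the averaged comparison and 1 (Kcnv2) in KO vehicle minus WT vehicle. Libraries of the same number in different groups correlated between 0.00108 and 0.478 in their deviations, so the numbers were not shown to pair the samples, and the labels give no shared source. RLE size factors, unstranded counts, the 50-read filter and the term for the classes of library gave 0 called in each comparison. The fit with only the groups compared applied to the 4 comparisons of 2 groups. Over all tested genes the averaged comparison called 82 genes in the design used, 754 by DESeq2, 1684 with no filter and 142 with length offsets. It called 9 with the class term, 531 with the block and 5 to 22 with single KO ifetroban libraries left out. The causes of these changes were not tested.

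Some of the named genes changed sign, most of them near 0 and 1, Kcnab2, not. In the averaged comparison, the length offsets gave 0.0443 for Kcnab1 and -0.0268 for Kcnj8. The class term gave 0.102 for Kcna4, 0.0216 for Hcn2 and 0.134 for Scn7a. Unstranded counts gave -0.0261 and the replicate block -0.0747 for Scn3b. Leaving out the library labelled WT vehicle replicate 1 together with KO vehicle replicate 1 gave 0.00989 for Kcnq1, 0.0655 for Kcnk3, 0.0664 for Hcn2, -0.301 for Scn2b and -0.0161 for Scn3b; in KO vehicle minus WT vehicle, Kcnab2 was then at -0.0158, against 0.82 with them. Leaving out KO vehicle replicate 1 and KO ifetroban replicate 1, a setting chosen after seeing the data, gave 0.190 for Kcna4, -0.0204 for Kcna5, 0.0706 for Kcnab1, 0.126 for Hcn2 and 0.105 for Scn7a. With single libraries left out, values ranged from -0.631 to 0.160 for Kcna4, -0.0516 to 0.388 for Kcna5, -0.540 to 0.212 for Kcnab1, -0.0167 to 0.148 for Kcnj8, -0.305 to 0.437 for Kcnma1, -0.227 to 0.0830 for Hcn2, -0.211 to 0.615 for Scn2b and -0.118 to 0.218 for Scn3b.

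The groups of 2 and 3 libraries, 1 of them with a target gene level against its label, and the overlap of the classes of library with genotype and treatment limit what these values can separate. Genes with few reads, such as Kcns3, Kcnma1 and Kcnk1, have wide errors, and a difference that missed the threshold was not shown to be absent.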

Other observations

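KO vehicle replicate 1 held the lowest of the 9 values for 44.1% of the 68 tested channel genes and for 26.7% of all 15261 tested genes, and KO ifetroban replicate 1 for 14.7% and 6.17%. In WT vehicle replicate 2, 54 of 68 channel genes (79.4%) were above their mean over the 9 libraries, against 51.2% of all tested genes, and in KO ifetroban replicate 3 it was 50 of 68 (73.5%), against 52.0%. The median deviation of the channel genes from their mean over the 9 libraries was -0.23, 0.18 and 0.18 on the log2 scale in KO ifetroban and -0.35 and -0.02 in KO vehicle, against 0.16 and 0.12 in WT ifetroban, -0.12 in the library labelled WT vehicle replicate 1 and 0.26 in WT vehicle replicate 2. The 4 lowest of these medians were those of the libraries with long transcripts low.

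The fibroblast markers were positive in KO over WT for 8 of 8, summing to 2043 to 2853 CPM in KO and 1910 to 2235 CPM in WT. Smooth muscle and pericyte markers summed to 1089 to 1316 CPM in KO and 1011 to 1297 CPM in WT, and endothelial markers to 1271 to 1492 CPM in KO and 1295 to 1396 CPM in WT. Lymphocyte markers summed to 2.37 to 4.66 CPM in KO and 2.46 to 4.37 CPM in WT, and markers of liver and blood to 24.8 to 217 CPM in KO and 16.8 to 190.3 CPM in WT. Of the last, Alb was at 59.7 CPM and Apoa1 at 10.98 CPM in KO vehicle replicate 1. The other libraries held at most 4.58 CPM of Alb and 0.386 CPM of Apoa1. The part of these genes in the channel values was not tested.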
